A study of Mus musculus with 24 samples.

Results

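RNA polymerase III is built of subunits that are its own and subunits that it shares with the other nuclear RNA polymerases. The 9 genes described here, Polr3a, Polr3b, Polr3c, Polr3d, Polr3e, Polr3f, Polr3g, Polr3gl and Polr3k, encode subunits of the first kind. They were chosen by name, and the family was picked because Polr3b had one of the smallest p values, rank 7 of 15667 genes, in the comparison of the PICK1 inhibitor with saline. The gene table held 45706 genes, of which 15667 had enough counts to be tested, and 9 of 9 members were among them. Since the family was picked from that comparison, its values there are given as a description. Calls made there are counted beside the share of all genes called, and nothing is read from them.

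RNA polymerase III transcribes short untranslated RNAs, among them the transfer RNAs, the 5S ribosomal RNA, 7SK, the RNA of the signal recognition particle and the RNA components of RNase P and RNase MRP. Initiation factors recruit it to promoters that lie inside or just upstream of these genes, and the repressor Maf1 holds it back when nutrients are scarce. In every tissue, neurons included, the enzyme is part of the machinery that sets the capacity for protein synthesis.

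The libraries were made from poly(A) RNA of the whole hypothalamus of diet-induced obese (DIO) mice with an average weight of 53 g that were housed in pairs. One group of 8 libraries came from mice given UCCB01-147 at 25 mg/kg, labelled PSD-95i for an inhibitor of the postsynaptic scaffold PSD-95. A second group of 8 came from mice given mPD5 at 56 mg/kg, labelled PICK1i for an inhibitor of PICK1, a protein that takes part in the traffic of glutamate receptors. The 8 libraries of the control group came from mice given isotonic saline. All groups received daily injections for 5 days and gave tissue 2 hours after the last one. Strain, age, sex and genotype are not given in the labels, and the protocol names 6 saline mice where the labels give 8 libraries. Nothing in the labels ties a library to a mouse, so the p values measure the spread between libraries.

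The depth of a library, as its summed estimated counts, ran from 4762703 to 9228858 (median 7628245). All 15 markers of the hypothalamus were detected, and their sum was 896 to 1860 CPM, the count of a gene scaled to a common library size. A pair of saline libraries, replicates 2 and 3, stood apart: 10 pituitary markers summed to 77000 and 55300 CPM there with none at 0, against 35.9 to 216 CPM in the other 22 libraries, where up to 8 of the 10 were at 0. A set of 4 PICK1i libraries, replicates 1, 2, 5 and 6, had mitochondrial transcripts at 13.47% to 16.61% of counts, against 7.882% to 11.17% in all other libraries. In the same 4 libraries long transcripts were low relative to short ones: the slope of log2 level on log2 transcript length was -0.1718 to -0.0957, against -0.0239 to 0.0885 elsewhere. Many results that rest on these 6 libraries are given with and without some or all of them. The order of levels, the correlations between genes and the medians by length class are given with all libraries only.

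The promoters of 4 members are printed because they belong to the genes the results turn on: Polr3b, the paralogs Polr3g and Polr3gl, and Polr3e, whose upstream region carries a motif of the enzyme's own templates. Each is the 250 bases before the transcription start in RefSeq, build GRCm38.p6, 5′ to 3′ on the strand of the gene. RefSeq promoters were matched for 7 of the 9 members. Those of Polr3a and Polr3d were not used here. Capitals mark the motif CCGGAAG, the core of ETS factor sites, in Polr3b and Polr3g, where it lies on the opposite strand and reads CTTCCGG. In Polr3e they mark a form of the B box found inside transfer RNA genes, and those capitals are the letters searched. In Polr3gl they mark CACGTG, the E-box.
Polr3b, chr10:84622048-84622297, plus strand: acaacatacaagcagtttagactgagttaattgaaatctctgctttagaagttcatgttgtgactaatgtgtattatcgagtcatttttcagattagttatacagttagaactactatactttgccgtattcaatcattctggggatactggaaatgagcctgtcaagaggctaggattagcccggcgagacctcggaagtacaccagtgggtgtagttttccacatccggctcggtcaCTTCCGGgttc
Polr3g, chr13:81711014-81711263, minus strand: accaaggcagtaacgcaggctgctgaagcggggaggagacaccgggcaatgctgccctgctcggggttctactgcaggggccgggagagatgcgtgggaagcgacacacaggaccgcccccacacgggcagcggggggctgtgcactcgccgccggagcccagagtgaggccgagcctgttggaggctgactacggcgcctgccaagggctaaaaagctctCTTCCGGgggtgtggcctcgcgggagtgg
Polr3gl, chr3:96594182-96594431, minus strand: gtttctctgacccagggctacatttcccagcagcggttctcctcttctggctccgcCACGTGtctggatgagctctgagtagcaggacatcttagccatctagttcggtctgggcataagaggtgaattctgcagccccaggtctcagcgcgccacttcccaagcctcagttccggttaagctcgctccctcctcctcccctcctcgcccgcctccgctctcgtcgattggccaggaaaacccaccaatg
Polr3e, chr7:120917528-120917777, plus strand: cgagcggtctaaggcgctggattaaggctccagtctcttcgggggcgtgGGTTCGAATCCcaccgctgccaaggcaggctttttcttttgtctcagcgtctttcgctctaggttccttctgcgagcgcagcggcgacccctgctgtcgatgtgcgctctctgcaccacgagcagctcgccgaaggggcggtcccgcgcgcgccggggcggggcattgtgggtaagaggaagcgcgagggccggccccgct

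The motifs were chosen after these sequences were read, and both strands of 32851 promoters of 300 bases (250 before and 50 from the start) were searched. The B box letters were found in 5 promoters, or 0.0152%, one of them that of Polr3e, at bases -201 to -191. The ETS core was present in 8.86% of promoters and in 2 of 7 members, at -11 to -5 in Polr3b and at -29 to -23 in Polr3g. The E-box was present in 7.15% of promoters and in Polr3c, Polr3e and Polr3gl. The GC box GGGCGG, present in 35.7% of promoters, was found in Polr3c, Polr3e and Polr3g, and the box CCAAT, present in 37.4%, in Polr3gl and Polr3k. The letters TATAAA were in 13.6% of promoters and TCAAGGTCA in 0.423%, and neither was in the windows of the 7 members. The Polr3b window of 300 bases had 46% G and C, the lowest of the 7, against a median of 52.7% over all promoters. A match is a string of letters and was not tested as a binding site.

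In saline the members spanned a wide range of levels. On the scale of CPM per kilobase of transcript, with lengths weighted by the counts of each transcript, Polr3gl was highest at 28 ± 5.22 (SD, n = 8) and Polr3g lowest at 1.88 ± 0.729. Between them came Polr3d at 14.8 ± 3.43, Polr3k at 14.7 ± 1.03, Polr3e at 13.6 ± 1.01, Polr3c at 12.1 ± 1.49, Polr3a at 7.6 ± 0.337, Polr3f at 6.81 ± 0.869 and Polr3b at 5.33 ± 0.57. The neighbours Polr3d and Polr3k, and Polr3a and Polr3f, lay closer together than 1 SD. With all 8 saline libraries, the order was the same when the longest annotated transcript set the length. It was not computed without the pituitary-rich replicates 2 and 3. Polr3d averaged 41 CPM in those and 26.1 in the other 6 saline libraries, against 43 and 41.7 for Polr3k and 40.6 and 45.8 for Polr3e. Polr3g and Polr3gl encode alternative forms of one subunit, of which the Polr3g form is known from undifferentiated and tumour cells and the Polr3gl form from most adult tissues. Per kilobase, Polr3g made up 6.11% ± 1.24 (SD, n = 8) of the sum of both in the saline group, 5.67% ± 1.85 with PSD-95i and 5.56% ± 1.06 with PICK1i, and the ranges of the 3 groups overlapped. Without the libraries that stand apart the share was 5.54% ± 0.711 in 6 saline and 5.95% ± 0.429 in 4 PICK1i libraries, so the order of the group means turned.

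**Figure D1:**
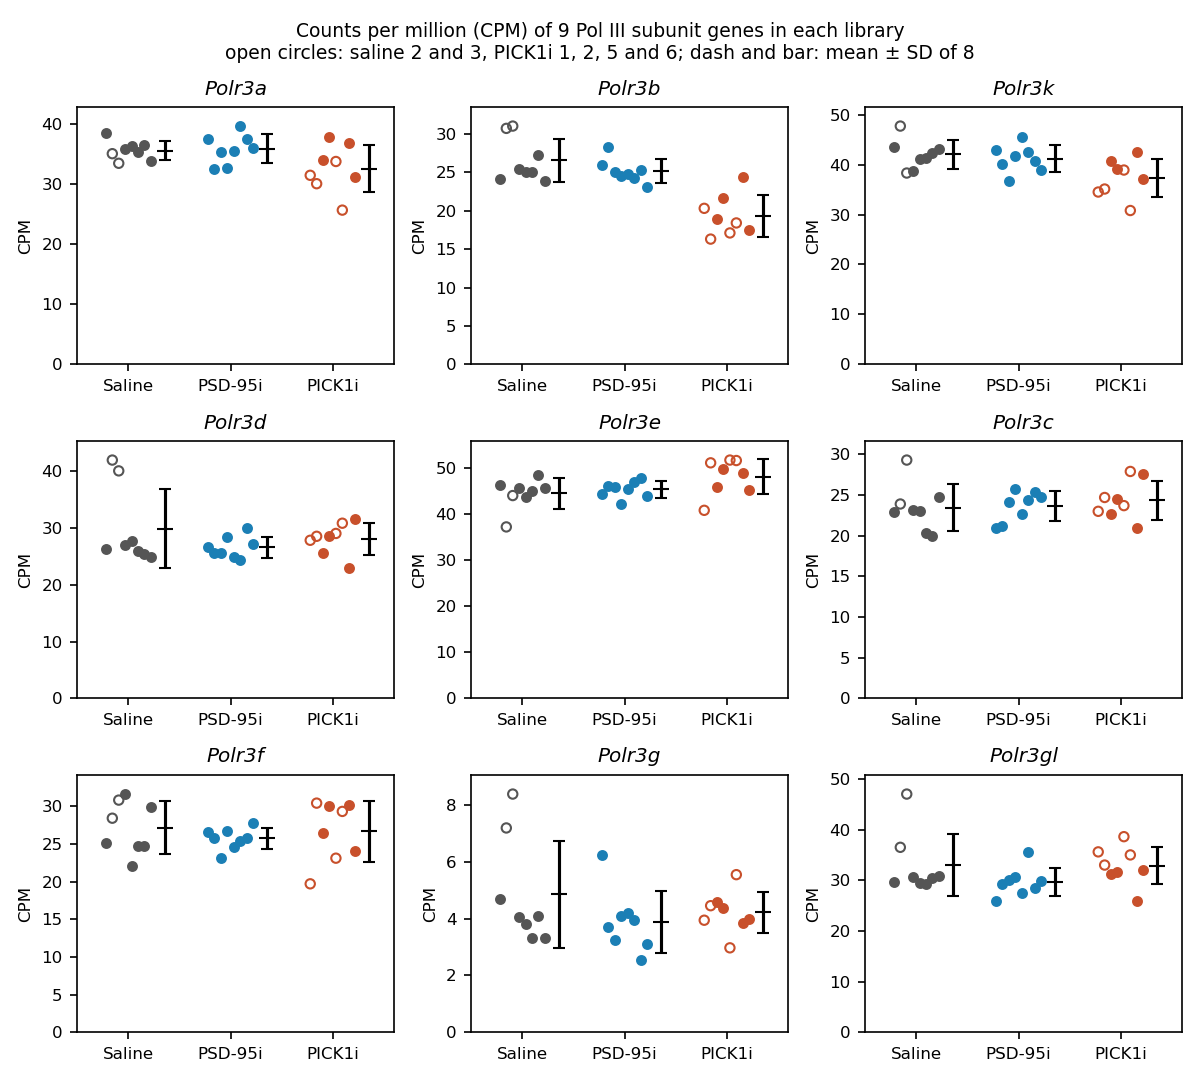
Level of each of the 9 genes in each of the 24 libraries, in CPM on axes that start at 0, by group. Filled circles are libraries, open circles the 6 libraries that stand apart, and the dash with its bar is the mean ± SD of 8. Most PICK1i libraries lie below the saline libraries for Polr3b, at 16.3 to 24.4 CPM against 23.9 to 31.0. Saline replicates 2 and 3 lie above the rest for Polr3b, Polr3d and Polr3g.

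Polr3a and Polr3b encode the catalytic large subunits, which together form the active site. Polr3b lies at chr10:84622292-84727178 on the plus strand of GRCm38, and its one transcript in the table, Polr3b-201, has 28 exons and 4975 nt. In saline it had 24.1, 30.7, 31.0, 25.4, 25.0, 25.0, 27.2 and 23.9 CPM in replicates 1 to 8. In PSD-95i the values were 25.9, 28.3, 25.0, 24.5, 24.8, 24.3, 25.3 and 23.1 CPM. In PICK1i they were 20.3, 16.3, 18.9, 21.7, 17.1, 18.4, 24.4 and 17.5 CPM. All 8 PICK1i libraries lay below the saline median of 25.2, and 7 lay below the lowest saline library, but PICK1i replicate 7 made the groups overlap. The highest saline values, 30.7 and 31.0 CPM, were those of the pituitary-rich replicates 2 and 3.

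Between PICK1i and saline, the comparison that chose it, Polr3b was lower by 0.45 on the log2 scale (log2 fold change -0.45 ± 0.08 SE, 19.3 ± 2.70 against 26.5 ± 2.84 CPM, SD, n = 8 each). In whole tissue, fewer cells of a type and less RNA per cell cannot be told apart. The call that chose the family, an adjusted p below 0.05 by edgeR's quasi-likelihood test, took in 1 of the 9 members, Polr3b, and 9.15% of all genes (4.27% lower and 4.88% higher). This count restates the choice. The size shrank as the libraries that stand apart were removed: -0.38 ± 0.08 without the pituitary-rich saline libraries, -0.36 ± 0.09 without PICK1i replicates 1, 2, 5 and 6, and -0.28 ± 0.08 without all 6. Without all 6, the 4 remaining PICK1i libraries had 17.5 to 24.4 CPM (mean 20.6) and the 6 saline libraries 23.9 to 27.2 CPM (mean 25.1). In none of these 3 fits was a member called, and of all genes tested 5, 0 and 0 were called. Markers of other cells and tissue also differed in this comparison: 5 of 5 meninges markers were below 0 (2 called lower, median -1.17, summed level 16.5 to 69.5 CPM in PICK1i and 19.3 to 137 in saline), and 6 of 6 tested cortex and hippocampus markers were above 0 (0 called, median 1.06, summed level 10.9 to 330 CPM in PICK1i and 6.86 to 110 in saline). The cortex and hippocampus sums had group medians of 14 CPM in PICK1i and 13.8 in saline, and the highest PICK1i library was replicate 6. Without PICK1i replicates 1, 2, 5 and 6, 3 of these 6 markers were below 0 and their median was 0.16. Oligodendrocyte markers were above 0 in 6 of 6 (1, Mobp, called higher, median 0.3, summed level 5020 to 9320 CPM in PICK1i and 2810 to 7090 in saline). Of 4 tested thalamus markers 3 were below 0 (Tcf7l2 called lower, median -0.13, 61.4 to 77.5 CPM against 76.8 to 90.8), and of 5 endothelium markers 3 were above 0 (Ly6c1 called higher, median 0.17, 150 to 244 CPM against 120 to 234). None of the markers in these lists was at 0 in every library. Without saline replicates 2 and 3 edgeR called 0 markers in each of these lists, beside 0.0316% of all genes. In that fit the medians were -0.86 for meninges markers and 0.73 for cortex and hippocampus markers. They were 0.13 for oligodendrocyte, -0.11 for thalamus and -0.01 for endothelium markers. The part of these markers in the Polr3b value was not tested.

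Polr3a, at chr14:24448696-24487058 on the minus strand, is the other large subunit gene, with a transcript of 4687 nt. Its lowest, median and highest values were 33.5, 35.6 and 38.5 CPM in saline, 32.6, 35.9 and 39.7 in PSD-95i, and 25.7, 32.6 and 37.8 in PICK1i. The 3 ranges overlapped, and the lowest PICK1i library was replicate 6, one of the 4 with a high mitochondrial share. The ratio of Polr3b to Polr3a within a library, per kilobase, is given as a description. It holds the same Polr3b values that chose the family. The ratio was 0.704 ± 0.0949 (SD, n = 8) in the saline group, 0.664 ± 0.0736 with PSD-95i and 0.561 ± 0.067 with PICK1i. Its range was 0.59 to 0.872 in saline and 0.477 to 0.675 in PICK1i, so the groups overlapped. Without the 6 libraries that stand apart it was 0.656 ± 0.0369 in 6 saline and 0.554 ± 0.0466 in 4 PICK1i libraries. The ranges, 0.59 to 0.702 in saline and 0.524 to 0.623 in PICK1i, still overlapped.

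PSD-95i against saline played no part in choosing the family, though it uses the same saline libraries. None of the 9 members was called by edgeR's quasi-likelihood test, and none had an unadjusted p below 0.05. Across all genes 0% were called, with 1719 at an unadjusted p below 0.05 and a lowest adjusted p of 0.286. DESeq2 and limma-voom also called 0 genes. The Polr3b change was -0.08 ± 0.08 on the log2 scale (95% interval -0.24 to 0.08, adjusted p = 0.721, edgeR), with 5 of 8 PSD-95i libraries below the saline median. Without saline replicates 2 and 3 it was 0 ± 0.08. The Polr3a change was 0.01 ± 0.06 (-0.12 to 0.14, adjusted p = 0.952). Over the members the adjusted p ran from 0.532 to 0.955, 6 of 9 changes were below 0, and the median was -0.08 against 0 for all genes. Without saline replicates 2 and 3 the members' median was -0.01, with 7 of 9 below 0.

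**Figure D2:**
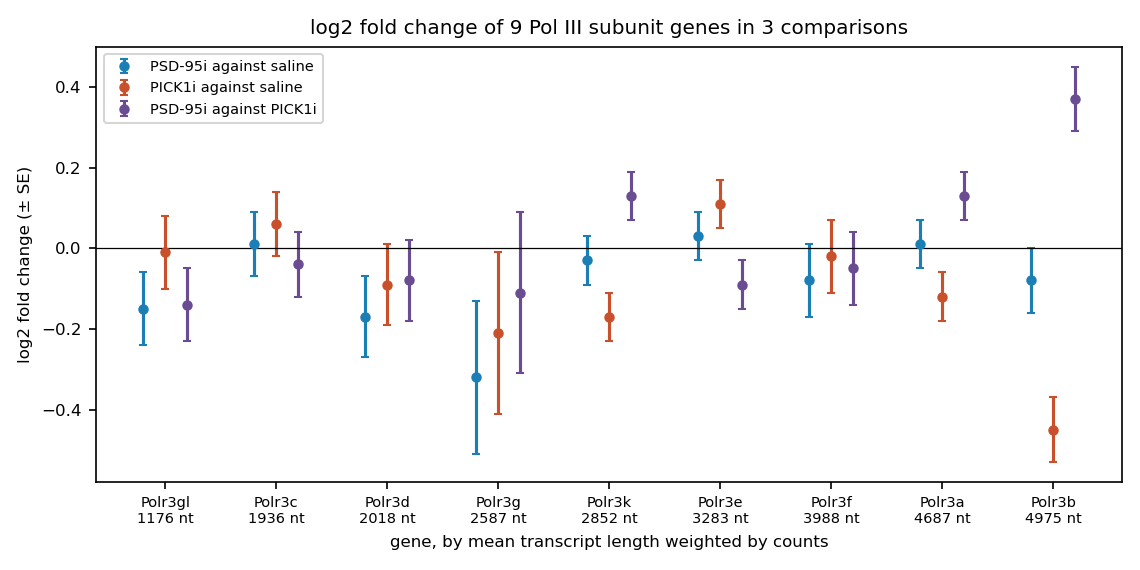
The log2 fold change with its SE for each gene, ordered by transcript length, in the 3 comparisons (blue, PSD-95i against saline, orange, PICK1i against saline, purple, PSD-95i against PICK1i). Polr3b stands at -0.45 in PICK1i against saline and at 0.37 in PSD-95i against PICK1i, 2 comparisons that share the PICK1i libraries.

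Polr3k encodes the small subunit that helps the enzyme cleave its transcript and terminate. It lies at chr2:181864337-181870830 on the plus strand. It had 38.3, 41.8 and 47.7 CPM (lowest, median, highest) in saline, 36.8, 41.2 and 45.5 in PSD-95i, and 30.8, 38.0 and 42.6 in PICK1i. In PICK1i 7 of 8 libraries were below the saline median and 4 were below the saline minimum. The log2 fold change was -0.17 ± 0.06 in PICK1i against saline, and -0.08 ± 0.06 without PICK1i replicates 1, 2, 5 and 6. The PSD-95i change against saline was -0.03 ± 0.06 (adjusted p = 0.862, edgeR).

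Polr3d and Polr3e encode the pair of subunits that resembles the initiation factor TFIIF and acts in initiation and termination. Polr3d, at chr14:70438757-70443447 on the minus strand, had 24.9, 26.5 and 41.9 CPM in saline, 24.4, 26.2 and 29.9 in PSD-95i, and 22.9, 28.6 and 31.5 in PICK1i. The highest 2 saline values, 41.9 and 40, were those of the pituitary-rich replicates 2 and 3, and the other 6 averaged 26.1. Its change in PSD-95i against saline was -0.17 ± 0.10 with all libraries (adjusted p = 0.532, edgeR) and 0.02 ± 0.07 without those 2. The PICK1i change against saline went from -0.09 ± 0.10 to 0.09 ± 0.07 when the same 2 were left out.

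Polr3e, at chr7:120917744-120947432 on the plus strand, had 37.2, 45.3 and 48.5 CPM in saline, 42.2, 45.7 and 47.8 in PSD-95i, and 40.8, 49.3 and 51.7 in PICK1i. Here 7 of 8 PICK1i libraries were above the saline median, and the ranges overlapped. The change in PICK1i against saline was 0.11 ± 0.06 with all libraries. It was 0.06 ± 0.05 without saline replicates 2 and 3, and 0.05 ± 0.05 without all 6 libraries that stand apart. In PSD-95i against saline it was 0.03 ± 0.06 with all libraries (adjusted p = 0.876, edgeR) and -0.02 ± 0.05 without saline replicates 2 and 3.

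Polr3c, Polr3f, Polr3g and Polr3gl encode the subcomplex that contacts the initiation factors and helps to open the promoter. Polr3c (chr3:96711490-96727628, minus strand) had 20, 23.1 and 29.3 CPM in saline, 20.9, 24.3 and 25.8 in PSD-95i, and 20.9, 24.1 and 27.9 in PICK1i. Polr3f (chr2:144527718-144541995, plus strand) had 22.1, 26.7 and 31.6 CPM in saline, 23.1, 25.8 and 27.8 in PSD-95i, and 19.7, 27.9 and 30.4 in PICK1i. The groups overlapped for both genes, and the changes were 0.01 ± 0.08 and -0.08 ± 0.09 in PSD-95i against saline (adjusted p = 0.955 and 0.737, edgeR). The PICK1i values against saline were 0.06 ± 0.08 for Polr3c and -0.02 ± 0.09 for Polr3f.

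Polr3gl (chr3:96577872-96594181, minus strand) had 29.2, 30.5 and 47.0 CPM in saline, 26, 29.6 and 35.6 in PSD-95i, and 26, 32.5 and 38.6 in PICK1i. Polr3g (chr13:81673843-81711013, minus strand) had 3.30, 4.07 and 8.37 CPM in saline, 2.54, 3.82 and 6.22 in PSD-95i, and 2.97, 4.18 and 5.54 in PICK1i. For both paralogs the 2 highest saline libraries were the pituitary-rich replicates 2 and 3, at 36.5 and 47.0 CPM of Polr3gl and 7.18 and 8.37 CPM of Polr3g. The other 6 saline libraries averaged 30 and 3.88 CPM. Polr3g rests on 18 to 62 counts per library, the fewest of the members, and the other 8 on 83 to 456. Its change in PSD-95i against saline was the lowest of the 9, -0.32 ± 0.19 (95% interval -0.72 to 0.09, adjusted p = 0.538, edgeR), and was -0.01 ± 0.16 without saline replicates 2 and 3. For Polr3gl the change was -0.15 ± 0.09 (adjusted p = 0.535) and -0.02 ± 0.07 without them.

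Between the inhibitors, in libraries that partly chose the family, 0 of 9 members were called by edgeR's quasi-likelihood test and 3 had an unadjusted p below 0.05. Over all genes 0% were called, 3789 had an unadjusted p below 0.05 and the lowest adjusted p was 0.0513. DESeq2 called 1260 genes and limma-voom 429, in each case with 1 member, Polr3b. Polr3b was higher in PSD-95i than in PICK1i by 0.37 ± 0.08 on the log2 scale, with 8 of 8 PSD-95i libraries above the PICK1i median, given as a description. Polr3a (0.13 ± 0.06, adjusted p = 0.199) and Polr3k (0.13 ± 0.06, adjusted p = 0.194) did not pass the test, with 7 of 8 PSD-95i libraries above the PICK1i median for each. Without PICK1i replicates 1, 2, 5 and 6 the differences were 0.28 ± 0.09 for Polr3b, 0.04 ± 0.06 for Polr3a and 0.04 ± 0.06 for Polr3k.

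The members differ in length, and in PICK1i against saline the change of a gene went with the length of its transcripts across the whole table. When 15618 genes with a known length were divided into 10 classes by length, the median log2 fold change fell from 0.16 in the shortest class to -0.13 in the longest. In PSD-95i against saline the same medians ran from -0.04 to 0.01. Polr3b and Polr3a belong to the ninth class (4503 to 5831 nt), where the PICK1i median was -0.10 and 73.6% of genes were below 0. Polr3a, at -0.12, was close to that median, and Polr3b, at -0.45, was below it. Polr3gl, the shortest at 1176 nt, stood at -0.01 against a class median of 0.09, Polr3k at -0.17 against -0.02, Polr3d at -0.09 and Polr3c at 0.06 against 0.03. Polr3g, at -0.21 with all libraries and 0.10 without saline replicates 2 and 3, had a class median of 0, Polr3f, at -0.02, one of -0.06, and Polr3e, at 0.11, one of -0.04. With the slope of each library on length as a covariate, the PICK1i change was -0.38 ± 0.08 for Polr3b, -0.04 ± 0.06 for Polr3a, -0.11 ± 0.07 for Polr3k and 0.13 ± 0.06 for Polr3e.

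**Figure D3:**
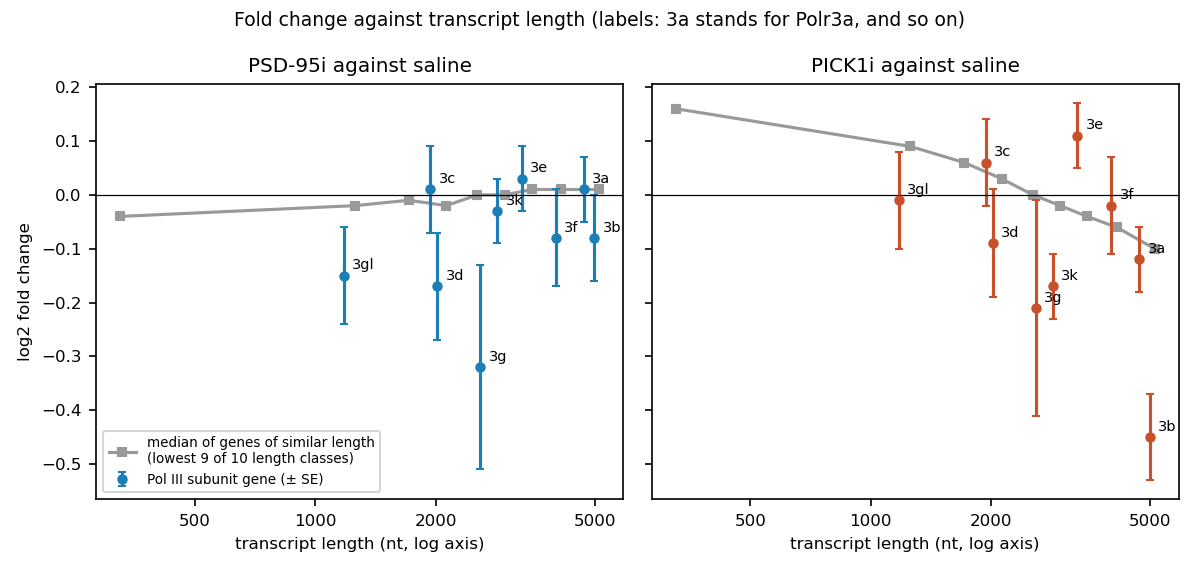
The log2 fold change of each member (circles, ± SE) against its transcript length in nt on a log axis, with the median of all tested genes in classes of similar length (grey squares, placed at the geometric middle of the class, longest class not drawn). In PICK1i against saline the grey line falls with length, and Polr3b lies at -0.45 where its class has a median of -0.10.

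Short and long transcripts of the members were set side by side. The transcript table held 30 transcripts of the 9 genes, and 20 had enough counts to be tested. For PICK1i against saline 1 of 20, Polr3b-201, and 2% of all 37955 transcripts tested were called (1.02% lower and 0.977% higher). Polr3b-201 had 19.5 ± 2.80 CPM in PICK1i and 27 ± 2.97 in saline (SD, n = 8 each), a log2 fold change of -0.46 ± 0.08. As it is the single Polr3b transcript in the table, it repeats the value of the gene that chose the family and adds nothing to it. Polr3a-201 (-0.13 ± 0.07) likewise repeats the value of its gene. Without saline replicates 2 and 3, or without PICK1i replicates 1, 2, 5 and 6, 0 of the member transcripts were called. For PSD-95i against saline and against PICK1i edgeR called 0 of 20 (0% of all transcripts), with a lowest adjusted p of 0.608 and 0.0686.

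Polr3e has a long coding transcript, Polr3e-201 of 4194 nt, and a shorter one, Polr3e-202 of 3001 nt, with the same 2130 coding bases and an earlier 3′ end. The long one held 23.7% ± 2.45 (SD, n = 8) of the gene's counts in the saline group, 24.6% ± 2.51 with PSD-95i and 22.5% ± 3.55 with PICK1i, and the ranges overlapped. In PICK1i against saline the long one changed by 0.03 ± 0.11 and the short one by 0.13 ± 0.06, and in PSD-95i against saline by 0.07 ± 0.11 and 0 ± 0.06. Polr3k has the same contrast in another form: Polr3k-201 (2948 nt, coding) stood at -0.19 ± 0.07 and the retained-intron form Polr3k-202 (474 nt), with 3.66% ± 0.797 of counts in saline, at 0.08 ± 0.22 in PICK1i against saline.

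For Polr3f the long coding transcript Polr3f-201 (4403 nt) held 85.9% ± 3.19 of the counts in saline and changed by -0.04 ± 0.09 in PICK1i, against -0.08 ± 0.34 for Polr3f-202 (1632 nt) and -0.16 ± 0.26 for the noncoding Polr3f-204 (2177 nt). For Polr3gl the coding Polr3gl-201 (1427 nt, 70.1% ± 3.28 in saline) changed by -0.02 ± 0.11, Polr3gl-204 (607 nt) by -0.17 ± 0.17 and the retained-intron Polr3gl-203 (545 nt) by 0.19 ± 0.18. In Polr3g more of the counts fell to the retained-intron transcript Polr3g-205 (2630 nt, 56.8% ± 10.2 in saline) than to the coding Polr3g-201 (3054 nt, 35.3% ± 8.24). Polr3g-201 had 1.72 ± 0.731 CPM (SD, n = 8) in the saline group, 1.04 ± 0.414 with PSD-95i and 1.53 ± 0.379 with PICK1i. This transcript rests on 247 estimated counts in total over the 24 libraries, and had 0.244 CPM in PSD-95i replicate 7. Its change in PSD-95i against saline, -0.70 ± 0.27, was the largest of the 20 in size and did not pass the test (adjusted p = 0.608, edgeR). It was -0.36 ± 0.27 without saline replicates 2 and 3, which had 2.78 and 2.84 CPM.

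For Polr3d the coding transcripts are almost equal in length: Polr3d-201 (2016 nt), with 85.2% ± 3.48 of counts in saline, changed by -0.13 ± 0.10 in PICK1i against saline and Polr3d-202 (2032 nt) by 0.03 ± 0.22. For Polr3c the long coding transcripts Polr3c-206 (2406 nt) and Polr3c-201 (2390 nt) changed by 0.07 ± 0.11 and 0.05 ± 0.15. The short coding Polr3c-202 (923 nt) changed by -0.01 ± 0.13 and the retained-intron Polr3c-204 (1628 nt) by -0.07 ± 0.18. Transcript counts are themselves estimates, and the error of dividing reads among transcripts of a gene is not in these standard errors.

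**Figure D4:**
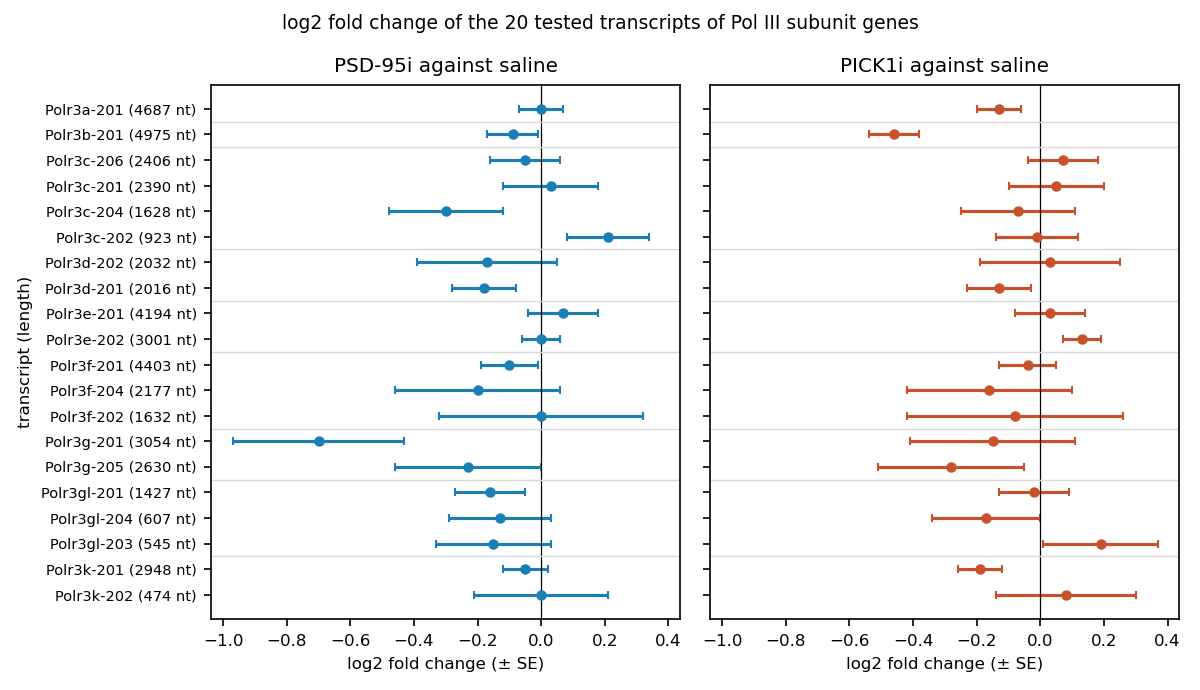
The log2 fold change with its SE of the 20 tested transcripts, grouped by gene with the longest at the top of each gene, in PSD-95i against saline (left) and PICK1i against saline (right). Polr3b-201 at -0.46 in PICK1i and Polr3g-201 at -0.70 in PSD-95i lie farthest from 0.

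The members differed in how alike they were from library to library. Over 24 libraries, as deviations of log2 CPM from the group mean, Pearson's r between members had a median of 0.038 over 36 pairs and ran from -0.44 to 0.67. The most alike were Polr3d and Polr3gl (r = 0.67), Polr3c and Polr3d (0.66) and Polr3a and Polr3k (0.64). For Polr3b the most alike member was Polr3g (0.42), for Polr3g it was Polr3d (0.57), for Polr3f it was Polr3g (0.35), and for Polr3e it was Polr3f (0.26). Among all tested genes, those most like Polr3b included Zhx2 (0.797), Gprin3 (0.793), Mxd4 (0.775) and Prdm2 (0.769), and the least alike included Susd2 (-0.854) and Wsb1 (-0.806). These are descriptions over 24 points that share libraries, depth and the slope on length. The pituitary-rich saline replicates 2 and 3 lay above the other saline libraries for Polr3b, Polr3d, Polr3g and Polr3gl. No r was computed without them.

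The rest of the enzyme, its factors and its surroundings were read from lists. The list of 9 other Pol III subunits includes Crcp and subunits shared with RNA polymerase I or II, such as Polr2e and Polr2f. For the members the median in PICK1i against saline was -0.09 with 7 of 9 below 0. When saline replicates 2 and 3 were left out the members' median was 0.06 with 3 of 9 below 0. Without PICK1i replicates 1, 2, 5 and 6 it was -0.08 with 6 of 9 below 0. With PICK1i, 0 of the other 9 were called against saline by edgeR, 9 of 9 were above 0 and the median was 0.17, against -0.01 for all genes. Polr2e was at 0.26 ± 0.09 (adjusted p = 0.0538, edgeR), Polr2f at 0.25 ± 0.09 (0.0727), and Crcp at 0.17 ± 0.08 (0.152). The transcripts of all 9 are shorter than the median of 2763 nt over tested genes. Without PICK1i replicates 1, 2, 5 and 6 the list's median was 0 with 4 of 9 below 0. Leaving out saline replicates 2 and 3 instead gave a list median of 0.2 with 0 of 9 below 0. With PSD-95i 0 were called against saline and the median was -0.04.

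Among 18 initiation factors, which place the enzyme on its promoters, 1 was called in PICK1i against saline, where 9.15% of all genes were called. Snapc4, the large subunit of the complex that binds the promoters of small nuclear RNA genes, was higher by 0.36 ± 0.08 (adjusted p = 0.0181, edgeR), with a transcript of 3810 nt. The other factors with the smallest p did not pass: Bdp1, a part of TFIIIB, was at -0.27 ± 0.09 (adjusted p = 0.0593). The list's median was -0.03, with 11 of 18 below 0. With PSD-95i 0 of 18 were called against saline and the median was also -0.03. Of 9 regulators and RNA partners 0 were called in either comparison, and in PICK1i against saline Maf1, the repressor of the enzyme, was at 0.03 ± 0.07 (adjusted p = 0.806). Rb1, the retinoblastoma protein, was at -0.27 ± 0.10 (0.0673), and Ssb, the La protein that binds the ends of new Pol III transcripts, at 0.17 ± 0.08 (0.144).

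Of the subunits of the other polymerases, 0 of 6 of RNA polymerase I (median 0.01) and 1 of 8 of RNA polymerase II (median 0.06) were called in PICK1i against saline. The one was Polr2c (1580 nt), at 0.25 ± 0.08 (adjusted p = 0.0409, edgeR), while the large subunits Polr2a (6108 nt) and Polr2b (4103 nt) stood at -0.18 ± 0.08 (0.164) and -0.21 ± 0.07 (0.0678). Of 19 genes of transfer RNA processing 2 were called, both higher, beside 4.88% of all genes called higher: Pop5 of RNase P, at 0.42 ± 0.12 (adjusted p = 0.0297), and Tsen34 of the splicing endonuclease, at 0.21 ± 0.07 (0.0457). That list's median was 0.08. Without saline replicates 2 and 3, and without PICK1i replicates 1, 2, 5 and 6, edgeR called 0 genes of each of these lists in PICK1i against saline. Of all genes tested it called 5 and 0 there. For PSD-95i 0 genes of these lists were called against saline, and their medians were 0.02, 0 and 0 for RNA polymerase I, RNA polymerase II and transfer RNA processing.

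**Figure D5:**
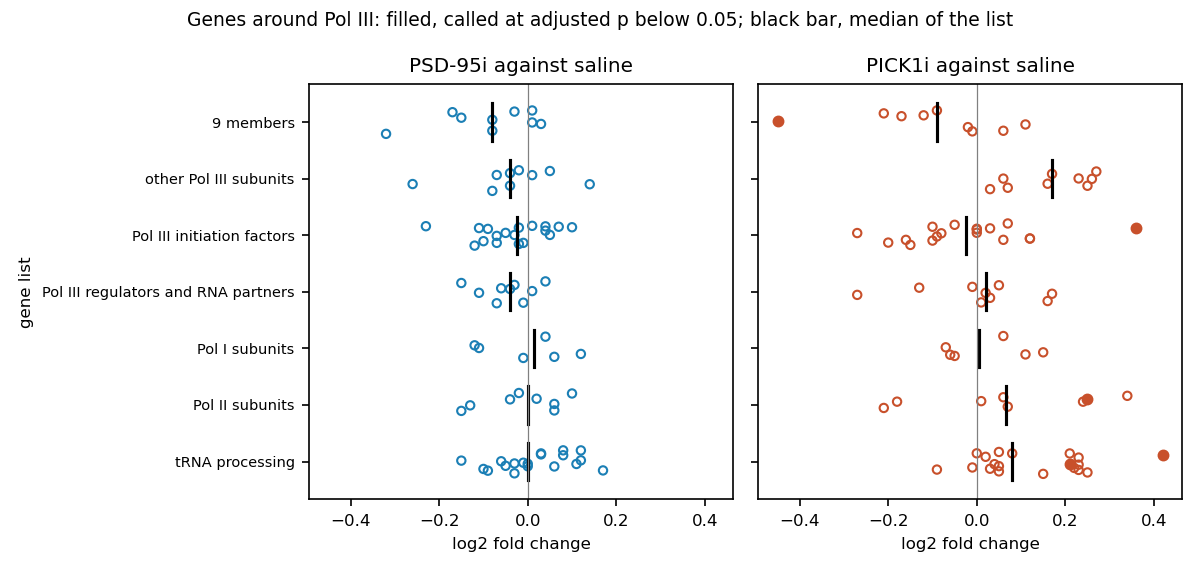
The log2 fold change of each gene of 7 lists in PSD-95i against saline (left) and PICK1i against saline (right), with the list's median as a black bar and called genes filled. In PICK1i against saline the 9 members have a median of -0.09 and the other 9 Pol III subunits one of 0.17. Without saline replicates 2 and 3 the medians are 0.06 for the members and 0.2 for the other subunits. Without PICK1i replicates 1, 2, 5 and 6 they are -0.08 and 0.

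Products of RNA polymerase III mostly lack a poly(A) tail, so poly(A) libraries hold what escapes that selection. Of the 7 that could be tested 0 were called in any comparison. Rn7sk, the 7SK RNA, had 98.1 ± 37.4 CPM (SD, n = 8) in the saline group, 81 ± 43.7 with PSD-95i and 115 ± 99.9 with PICK1i. Rn7s2, a 7SL RNA of the signal recognition particle, averaged 572, 442 and 618 CPM in the same order, and over all libraries ran from 164 to 1780 CPM. Rpph1, the RNA of RNase P, had 25.1 ± 9.73, 18.3 ± 11.8 and 25.2 ± 20.1 CPM, and Rmrp 9.87 ± 3.54, 9.28 ± 5.88 and 11.3 ± 9.36. For Rn7sk, Rpph1 and Rmrp the SD within PICK1i was larger than the differences between the group means. The list's median in PICK1i against saline was 0.18 with all libraries and -0.61 without PICK1i replicates 1, 2, 5 and 6, and in PSD-95i against saline it was -0.38.

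Exons of the noncoding Gm17249 share 247 bases with Polr3b on the opposite strand, and those of Gm16253 share 57 bases with Polr3gl. The kit keeps the strand, but whether the counting used it is not given in the sources used here, so reads from these overlaps cannot be told apart.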

How the data were processed

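Total RNA was isolated with an RNeasy kit, made into stranded poly(A) libraries and read as 52-base pairs, per the labels' protocols. The authors deposited raw estimated counts for genes and for transcripts and used bcl2fastq 2.20.0, STAR and Salmon on GRCm38, per the submitters' processing notes. No source used here names the annotation release, the STAR and Salmon versions or their options. Counts were rounded, filtered with filterByExpr (minimum count 10), scaled by TMM and tested by quasi-likelihood (edgeR 4.0.16, R 4.3.3), in 1 fit to all 24 libraries with 21 residual degrees of freedom. P values are two-sided and adjusted by Benjamini and Hochberg over all 15667 genes or 37955 transcripts, with a threshold of 0.05. Library totals of 4762703 to 9228858 counts limit precision for low genes. CPM in the text are TMM-scaled, except for the marker sums and the Pol III products, which are scaled to the total count of each library. Log2 CPM used a prior count of 2. Lengths and positions come from GENCODE M21, also on GRCm38. The fit was tested on simulated data. DESeq2 1.42.0, limma-voom (limma 3.58.1), surrogate variables (sva 3.50.0), other filters and scalings, blocks and left-out libraries were tried as alternatives.

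The members and gene lists were chosen with earlier results of these data known. Named were all members and their tested transcripts, called genes of each list and otherwise up to 4 with the smallest p, and the genes most and least like Polr3b. Maf1, Bdp1, Polr2a, Polr2b, Rn7s2 and Rpph1 were named in addition, after their values were seen. Some genes that this rule names are not reported here.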

Additional observations from a re-analysis of the deposited data

Results flagged for a closer look

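In 27 groups of 8 libraries (9 genes in 3 groups) a library that lay far from the others was looked for with Dixon's ratio, the gap to the nearest value divided by the range, against a critical value of 0.526. Chance marks about 1 in 20 groups, and 3 were marked. Polr3e in saline replicate 2 was low, at 37.2 CPM, with the next at 43.6 (ratio 0.573). Polr3gl in saline replicate 3 was high, at 47.0 CPM, with the next at 36.5 (ratio 0.592). Both are the pituitary-rich libraries, with pituitary markers summing to 77000 and 55300 CPM, whose part in the result was not tested. Polr3g in PSD-95i replicate 1 was high, at 6.22 CPM, with the next at 4.18 (ratio 0.555).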

How the results depend on the processing

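Under 13 other settings the members' changes kept their sign in 107 of 117 cases in PSD-95i against saline, 104 of 117 in PICK1i against saline and 114 of 117 in PSD-95i against PICK1i. In PSD-95i against saline 0 members and 0 genes were called under every setting run. Signs turned there for small changes. Polr3a went to -0.02 with 2 surrogate variables, and to -0.01 with the length slope as a covariate, without saline replicates 2 and 3 and without all 6 libraries. Polr3d went to 0 with surrogate variables and to 0.02 without those saline libraries or all 6, and Polr3e to -0.01 and -0.02. Leaving out 1 library gave -0.01 to 0.03 for Polr3a, -0.01 to 0.06 for Polr3c and -0.01 to 0.05 for Polr3e. In PSD-95i against PICK1i the slope turned Polr3c to 0.04, Polr3d to 0.05 and Polr3gl to 0.06.

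In PICK1i against saline the count of all genes called was 1434 and became 316 where limma-voom took neighbouring library numbers as a block, 9 with 2 surrogate variables, 2 with the slope, 5 without saline replicates 2 and 3, and 0 without the 4 PICK1i libraries, without all 6, and with only the 2 groups in the fit, where 3496 genes had an unadjusted p below 0.05. In limma-voom without that block the count was 1114. The causes were not tested. Leaving out 1 library gave 299 to 2757, and moved the count by over 1.5 times for saline replicates 2, 3 and 4 and PICK1i replicates 1, 2, 5, 6 and 7. The count of members called went from 1 to 0 in each of these but the first, and with 1 library left out was 1 to 2, the second being Polr3k without PICK1i replicate 7. The Polr3b change was -0.46 to -0.28, and -0.52 to -0.41 with 1 library left out. Over the other settings the PICK1i change against saline ran across 0 for Polr3c (-0.01 to 0.11), Polr3d (-0.19 to 0.09), Polr3f (-0.04 to 0.06), Polr3g (-0.22 to 0.10) and Polr3gl (-0.17 to 0.12). Member transcripts called went from 1 to 0 without either set of libraries.

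In PSD-95i against PICK1i the count of 0 became 528 with a minimum count of 30, 1260 with DESeq2, 429 with limma-voom and 1208 without saline replicates 2 and 3, each with 1 member, Polr3b. Leaving out 1 library gave 0 to 2315 genes and 0 to 1 members, above 1 gene without PICK1i replicate 3, 4, 7 or 8.

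Replicate numbers did not pair the libraries: correlations of same-numbered libraries ran from -0.194 to 0.15, and 1, 3 and 0 of 16 libraries correlated best with their own number in the 3 comparisons. With the replicate block, 1 member and 1127 genes were called in PICK1i against saline, and 0 members and 0 genes in the other comparisons. Within pairs of neighbouring library numbers, the correlation estimated with limma-voom was 0.141. Levels per kilobase of Polr3c and Polr3e were 9.73 and 10.6 with the longest transcript.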
